A study of Mus musculus with 2 samples.

Results

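The 6 Dlx homeobox genes were examined in a map of accessible chromatin from wild-type mouse striatum, dissected at E14.5, when the ganglionic eminences are producing striatal neurons. Per the labels, nuclei were isolated, a transposase tagged their open DNA in 10x Genomics Chromium droplets, and the mice had a background of C57BL/6J and CD1. The group consists of 2 libraries of 1 genotype, stage and tissue, and whether they came from separate embryos is not in the labels. The deposited result is 1 shared list of 87174 peaks, regions called accessible, with positions and no counts or scores. The Dlx genes are 6 of 21774 protein-coding genes, and they form 3 pairs of neighbours, Dlx1 with Dlx2, Dlx6 with Dlx5, and Dlx3 with Dlx4. Peaks were taken where they overlapped a Dlx gene span, as RefSeq gives it, or the 50 kb on either side, which gave 35 of the 87174 peaks. Of these, 12 lay at Dlx1/Dlx2, 7 at Dlx6/Dlx5 and 16 at Dlx3/Dlx4. Read depth, the number of nuclei and the agreement between the libraries are unknown here. No value has a replicate error, so the comparisons set the Dlx genes against other genes of the same list and carry no test.

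Dlx genes encode homeodomain transcription factors related to Drosophila Distal-less, and in mammals each pair is transcribed towards its own middle, so that the gene starts lie on the outside and the gene ends face each other. Dlx1 and Dlx2 act in progenitors of the ganglionic eminences, the source of striatal projection neurons and of forebrain interneurons, and mice that lack both fail to form most GABAergic neurons of the forebrain. Dlx5 and Dlx6 follow in the same lineage, and also pattern jaw and limb. Dlx3 and Dlx4 are best known from placenta, skin, hair, tooth and bone. The segment between the genes of a pair is known to hold enhancers that both genes share, and the long non-coding RNA Dlx6os1, also called Evf2, starts in this segment between Dlx6 and Dlx5. The question addressed is how far the 3 pairs resemble one another in open chromatin, at their gene starts and ends and in the segments between them.

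Windows of 300 bases around annotated gene starts, from 250 before to 50 after, are shown first because they differ in base composition and motifs, and in how far peaks cover them. They come from RefSeq (GRCm38.p6), the assembly that mm10 names, and are written 5′ to 3′ in the direction of transcription. Of the 6 Dlx genes, Dlx1 and Dlx2 had an entry. Of the Dlx antisense genes, Dlx6os1, Dlx6os2 and Dlx4os together had 4 entries, of which both Dlx6os1 starts and that of Dlx4os are shown. Capitals mark matches on either strand to 6 motifs: the homeodomain core TAATTA, the E-boxes CAGCTG and CACGTG, the MEIS motif TGACAG, the TATA box TATAAA and the SP motif GGGCGG. No 2 marked matches overlap. The windows are Dlx1 at chr2:71529195-71529494 on the plus strand, Dlx2 at chr2:71546705-71547004 on the minus strand, Dlx6os1 at chr6:6869484-6869783 and at chr6:6861634-6861933 on the minus strand, and Dlx4os at chr11:95144803-95145102 on the plus strand.
Dlx1: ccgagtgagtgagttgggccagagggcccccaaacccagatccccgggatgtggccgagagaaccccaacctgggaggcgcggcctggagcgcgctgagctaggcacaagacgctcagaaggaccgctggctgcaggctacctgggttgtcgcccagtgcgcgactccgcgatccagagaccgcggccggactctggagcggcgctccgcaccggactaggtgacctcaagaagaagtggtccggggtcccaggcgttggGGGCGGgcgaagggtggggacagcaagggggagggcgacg
Dlx2: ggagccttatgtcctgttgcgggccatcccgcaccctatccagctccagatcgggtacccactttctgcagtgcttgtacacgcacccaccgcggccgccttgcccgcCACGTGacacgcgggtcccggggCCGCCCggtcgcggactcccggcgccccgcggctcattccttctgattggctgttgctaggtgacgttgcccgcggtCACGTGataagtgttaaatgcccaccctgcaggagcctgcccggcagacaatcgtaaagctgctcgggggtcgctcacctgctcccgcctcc
Dlx6os1, start between Dlx6 and Dlx5: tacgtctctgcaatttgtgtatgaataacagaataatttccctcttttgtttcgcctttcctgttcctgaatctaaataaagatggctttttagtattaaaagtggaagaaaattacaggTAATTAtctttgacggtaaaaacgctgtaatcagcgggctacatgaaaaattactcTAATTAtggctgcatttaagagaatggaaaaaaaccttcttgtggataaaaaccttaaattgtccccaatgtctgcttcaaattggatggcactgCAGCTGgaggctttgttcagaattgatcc
Dlx6os1, start below Dlx6: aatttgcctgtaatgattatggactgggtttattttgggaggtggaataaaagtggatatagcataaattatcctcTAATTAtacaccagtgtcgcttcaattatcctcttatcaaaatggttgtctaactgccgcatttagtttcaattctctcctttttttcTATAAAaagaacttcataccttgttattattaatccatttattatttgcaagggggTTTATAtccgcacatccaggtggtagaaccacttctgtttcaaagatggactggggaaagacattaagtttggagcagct
Dlx4os: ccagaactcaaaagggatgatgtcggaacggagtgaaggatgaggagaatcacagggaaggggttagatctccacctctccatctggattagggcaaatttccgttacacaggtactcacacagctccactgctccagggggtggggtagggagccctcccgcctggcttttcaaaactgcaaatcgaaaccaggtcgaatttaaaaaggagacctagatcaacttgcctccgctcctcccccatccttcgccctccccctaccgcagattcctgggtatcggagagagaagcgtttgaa

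The windows of Dlx1 and Dlx2 were rich in G and C, with 69.3% and 66.3% of bases against a median of 52.7% over 32851 RefSeq windows. Their observed-to-expected CpG ratios were 0.767 and 0.898, against a median of 0.384. Neither held TAATTA, which occurs in 5.29% of all windows. Dlx1 held GGGCGG once, a motif in 35.7% of all windows, and Dlx2 held it once as well. Dlx2 also held CACGTG at positions 109 and 209, counted from 1 at the window's 5′ end. At least 1 CACGTG occurs in 7.15% of all windows and 2 or more in 0.594%.

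Both Dlx6os1 windows were of the opposite kind, rich in A and T. The start between Dlx6 and Dlx5 had 35.7% G and C and the start below Dlx6 had 35.3%, and 4.64% and 4.30% of all windows had as little or less. The first held TAATTA at positions 121 and 177, and 2 or more matches occur in 0.490% of all windows. It also held CAGCTG once, which 16.3% of all windows hold. The second held TAATTA at position 77 and TATAAA at positions 165 and 221. The match at 221, 30 bases before the annotated start, is on the opposite strand and reads TTTATA in the direction of transcription. TATAAA occurs in 13.6% of all windows, and 2 or more matches in 2.36%. In Dlx4os no match to the 6 motifs was present and 53.3% of bases were G or C, and neither did the Dlx6os2 window, with 51.7%, hold any. TGACAG, found in 19.2% of all windows, was in none of the windows of Dlx1, Dlx2, Dlx6os1, Dlx6os2 and Dlx4os. A match is a run of letters and does not show that a factor binds. The windows of Dlx1, Dlx2, Dlx6os1 at both starts and Dlx6os2 lay wholly inside a peak, as did 46.7% of all windows, whereas 84 bases of the Dlx4os window did.

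Dlx1 and Dlx2 lay together under 1 peak. This peak was 25417 bp wide, on chromosome 2 from 71523172 to 71548589, and 3 of the 87174 peaks were wider. It covered all 5869 bases of Dlx1 (71528113 to 71533981), all 9426 bases between the genes and all 3347 bases of Dlx2 (71543408 to 71546754). Beyond Dlx1 it ran on for 4940 bp, of which 2022 lay in the end of Metap1d, a mitochondrial methionine aminopeptidase gene, and beyond the start of Dlx2 for 1835 bp. The antisense gene Dlx1as (71530638 to 71537891), which overlaps Dlx1 and the segment, was covered throughout. The RefSeq start of Dlx1 shown above lies 1332 bp inside the gene span, whose edge comes from another transcript, and both positions were under the peak.

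Dlx6 and Dlx5 also lay under 1 peak, of nearly the same width. It spanned 25330 bp on chromosome 6, from 6857785 to 6883115, the next in width after that of Dlx1 and Dlx2. All 4637 bases of Dlx6 (6863334 to 6867970), all 9830 bases of the segment and all 4268 bases of Dlx5 (6877801 to 6882068) lay inside. The peak ran on for 5548 bp beyond Dlx6 and 1047 bp beyond Dlx5. Both Dlx6os1 starts shown above lay in it, the first 1563 bp past the end of Dlx6 inside the segment, and the second 1651 bp below the start of Dlx6. Dlx6os2 (6863797 to 6865150), an antisense RNA gene within Dlx6, was covered throughout. A second very wide peak of 7424 bp, from 6849732 to 6857156, stood 629 bp away inside Dlx6os1. Only 0.198% of all peaks were wider than it. With peaks closer than 1000 bp joined, these 2 became 1 stretch of 33383 bp, from 6849732 to 6883115.

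Dlx3 and Dlx4 were covered in pieces. Their block on chromosome 11, from the first base of Dlx3 to the last of Dlx4 (95120117 to 95146294), is 26178 bp long, and 7 separate peaks covered 33.7% of it. The start of Dlx3 lay under the widest, a peak of 3072 bp from 95119797 to 95122869. Another of 386 bp lay further along the gene, so that 60.6% of its 5180 bases were covered. At Dlx4 a peak of 1705 bp from 95145018 to 95146723 lay over the start of the gene, and a peak of 825 bp lay within it, which gave 35.9% of 5848 bases. The peak at the start of Dlx4 also held the annotated start of the antisense RNA gene Dlx4os. In the segment of 15150 bp between the genes, 3 peaks of 1529, 517 and 1525 bp covered 23.6%. The longest uncovered stretch, of 7598 bp, ran from 95129678 to 95137275, and the peak after it lay over the non-coding gene Gm38659. In all 17367 bases of the block were in no peak, in 6 stretches.

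**Figure D1:**
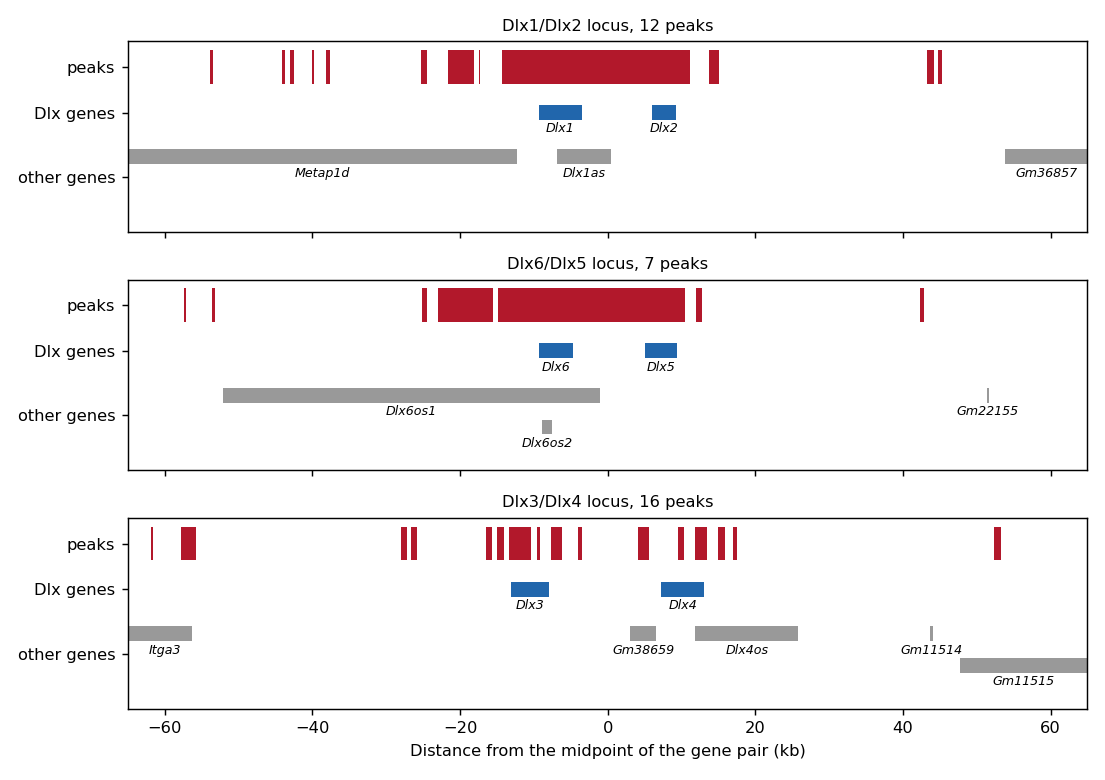
Peaks (red) at the 3 Dlx pairs with the Dlx genes (blue) and the other RefSeq genes within 50 kb (grey), by distance in kb from the midpoint of each pair. In the upper panels 1 peak of 25417 bp lies over Dlx1 and Dlx2 and 1 peak of 25330 bp over Dlx6 and Dlx5, while 7 peaks lie in the block of Dlx3 and Dlx4. Genes that run past 65 kb are drawn to the panel's edge.

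The outer ends of the pairs, where transcription starts, were under a peak in all 3 pairs, and the inner ends were so in Dlx1/Dlx2 and Dlx6/Dlx5 but not in Dlx3/Dlx4. Of the 12 gene ends, 10 had their own base in a peak and 11 had a peak within 1000 bp. All 8 ends of Dlx1, Dlx2, Dlx6 and Dlx5 were inside their pair's peak. At the inner end of Dlx3 the nearest peak was 244 bp away and at the inner end of Dlx4 it was 1647 bp away, whereas both outer ends were covered. A peak within 1000 bp of both ends was thus present at 5 of 6 Dlx genes, all but Dlx4, against 14.8% of protein-coding genes. A peak at either end was present at all 6, against 67.3%.

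Whole genes inside 1 peak were rare elsewhere in the list. Dlx1, Dlx2, Dlx6 and Dlx5 each lay wholly inside a peak, against 0.992% of protein-coding genes. The median protein-coding gene had 3.77% of its span covered, but the median span was 17219 bp, longer than any Dlx gene. The 60.6% of Dlx3 was above the value of 96.7% of protein-coding genes and the 35.9% of Dlx4 above 92.9%. A peak of the broadest 1%, over 4479 bp wide, lay within 1000 bp of Dlx1, Dlx2, Dlx6 and Dlx5, against 3.95% of protein-coding genes, and of neither Dlx3 nor Dlx4. The 4 genes share 2 peaks, so these counts are not independent.

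As pairs, Dlx1/Dlx2 and Dlx6/Dlx5 stood apart by length. Among 10504 pairs of neighbouring protein-coding genes at most 20 kb apart, both genes and the segment lay in 1 peak in 20 pairs, or 0.19%, and 2 of the 20 were Dlx pairs. Their blocks were 18642 bp for Dlx1/Dlx2 and 18735 bp for Dlx6/Dlx5. The next longest block of the 20 was 5658 bp, that of H2-Ke6 and the zinc transporter gene Slc39a7, and the median without the Dlx pairs was 1728.5 bp. Histone genes made up both members of 16 of the other pairs, and Mrps34 with Nme3 was the remaining one. These other pairs were named after their values were seen. Of the 8563 pairs with a block of at least 18642 bp, the Dlx pairs were the 2 that lay in 1 peak, or 0.0234%, a length limit set by the shorter Dlx pair itself.

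**Figure D2:**
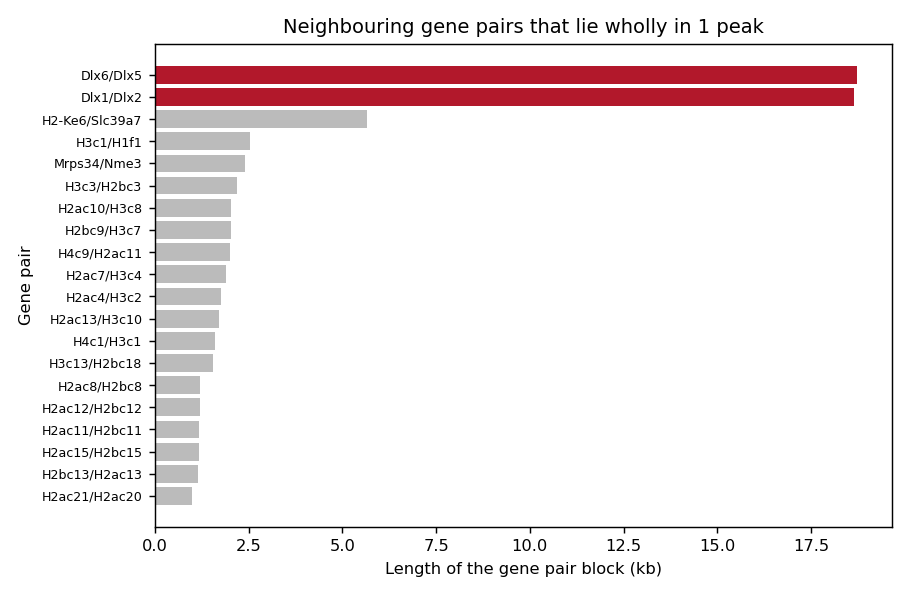
Length in kb of the block from the first base of one gene to the last base of its neighbour, for the 20 neighbouring protein-coding pairs whose block lies in 1 peak. The Dlx pairs (red) are 18735 and 18642 bp long and the other 18 (grey) run from 996 to 5658 bp.

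Full cover of the segment alone was more common. The segment was covered throughout in Dlx1/Dlx2 and Dlx6/Dlx5, and in 10.1% of all neighbouring pairs, whose median segment is 5497 bp. The median pair had 4.15% of its segment and 5.41% of its block covered. Dlx3/Dlx4, with 23.6% and 33.7%, exceeded 78.1% of pairs by segment and 96.2% by block. After 500 bp were trimmed from both ends of each peak in the list, it had 6.96% of its segment and 14.6% of its block covered, which exceeded 81.4% of pairs by segment and 94.3% by block.

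Linked homeobox genes of other families were covered less than Dlx1/Dlx2 and Dlx6/Dlx5. None of 7 such pairs lay in 1 peak, and their blocks were covered from 3.49% to 64.1%, with a median of 12.9%. The highest was Hmx2/Hmx3, a pair of ear and hypothalamus regulators, with 64.1% of 16483 bp, and it was the 1 pair of the 7 that lies within 20 kb. Six2/Six3, which includes the forebrain factor Six3, had 35.5% of its block covered and Lbx1/Tlx1 had 28.8%. Nkx2-2/Nkx2-4 had 12.9%, Nkx2-1/Nkx2-9 9.60%, Irx3/Irx5 7.34% and Irx1/Irx2 3.49%. Dlx3/Dlx4, with 33.7%, lay within the range of these pairs. Their spacing runs up to 660706 bp at Irx1/Irx2, against 15150 bp at most for Dlx pairs, so the blocks are not alike in spacing. Whether block cover depends on the distance between genes was not tested.

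**Figure D3:**
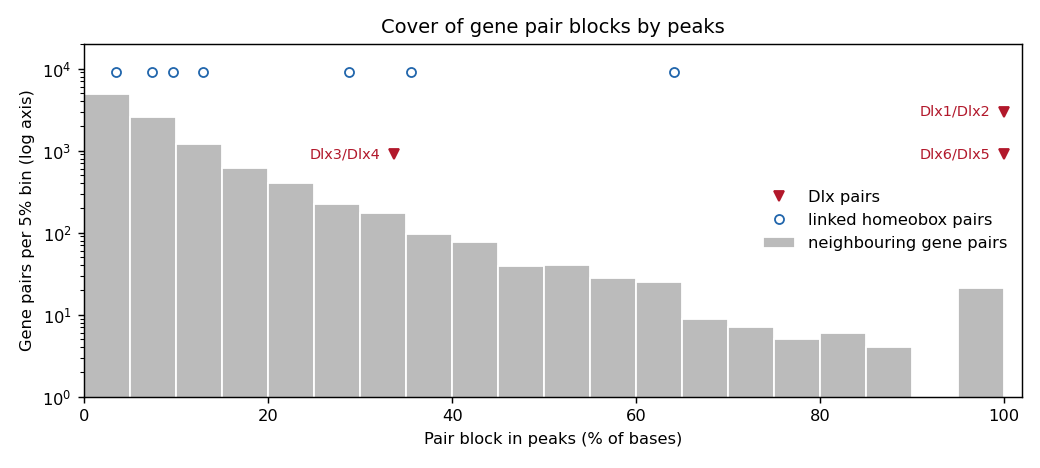
Share of the gene pair block that lies in peaks, in percent, for 3 Dlx pairs (red triangles), 7 linked homeobox pairs (blue circles) and 10504 neighbouring protein-coding pairs (grey bars, number of pairs per 5% bin on a log axis). Heights of triangles and circles carry no value. Dlx1/Dlx2 and Dlx6/Dlx5 are at 100% and Dlx3/Dlx4 is at 33.7%.

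Outside the blocks 11 peaks with 9770 bp lay at Dlx1/Dlx2, 6 peaks with 9803 bp at Dlx6/Dlx5 and 9 peaks with 7879 bp at Dlx3/Dlx4. The flanks of Dlx1/Dlx2 held 8 peaks on the Dlx1 side, 6974 bp in all, and 3 on the Dlx2 side, 2796 bp in all. All 8 lay inside Metap1d. They included a peak of 3531 bp from 71515739 to 71519270, 8842 bp from Dlx1, and the other 7 were 212 to 883 bp wide. On the Dlx2 side a peak of 1339 bp stood 4376 bp away, followed by 28234 bp without a peak.

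The flanks of Dlx6/Dlx5 held 4 peaks on the Dlx6 side, 8568 bp in all, of which 7424 bp were the wide peak in Dlx6os1, and 2 peaks on the Dlx5 side, 1235 bp in all. Although Dlx6os1 spans 51085 bp, 3 peaks overlapped it and they covered 42.9% of it, while its part farther from Dlx6 held none. Between the peak 15082 bp from Dlx6 and the next one outward 28119 bp held none. On the Dlx5 side a peak of 714 bp stood 2663 bp away and one of 521 bp stood 32990 bp away.

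The flanks of Dlx3/Dlx4 held 6 peaks on the Dlx3 side, 5490 bp in all, and 3 on the Dlx4 side, 2389 bp in all. Peaks of 865 and 839 bp stood 984 and 2554 bp from Dlx3, and a peak of 2079 bp lay over the start of Itga3, an integrin gene. On the Dlx4 side 2 peaks of 880 and 531 bp lay inside Dlx4os, and a peak of 978 bp lay in the non-coding gene Gm11515. The pseudogene Gm11514, the small nuclear RNA gene Gm22155 near Dlx5 and the start of the non-coding gene Gm36857 near Dlx2 held no peak.

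Summed over each locus, peaks covered 35187 bp at Dlx1/Dlx2, 35133 bp at Dlx6/Dlx5 and 17438 bp at Dlx3/Dlx4. The pair with the most peaks, Dlx3/Dlx4 with 16, therefore had the fewest bases in peaks. The widest peak made up 72.2% of the sum at Dlx1/Dlx2, 72.1% at Dlx6/Dlx5 and 17.6% at Dlx3/Dlx4. The median peak width was 583 bp at Dlx1/Dlx2, 659 bp at Dlx6/Dlx5 and 852 bp at Dlx3/Dlx4, against 565 bp over all peaks, and 23 of the 35 peaks were wider than that median. Within each locus the median gap between neighbouring peaks was 2541 bp at Dlx1/Dlx2, 2654 bp at Dlx6/Dlx5 and 1545 bp at Dlx3/Dlx4. The 10724 bp over the whole list is not a like measure, since it includes gaps longer than a locus, up to 89439166 bp. Fewer peaks per pair locus were found at 63.9% of neighbouring pairs for Dlx1/Dlx2, 32.7% for Dlx6/Dlx5 and 81.3% for Dlx3/Dlx4. The median pair locus held 9 peaks, and the median block, 43824.5 bp, is longer than any Dlx block. Gaps in the list are never under 501 bp, and whether closer regions were joined by the peak caller is not given. A wide peak therefore need not be open throughout.

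**Figure D4:**
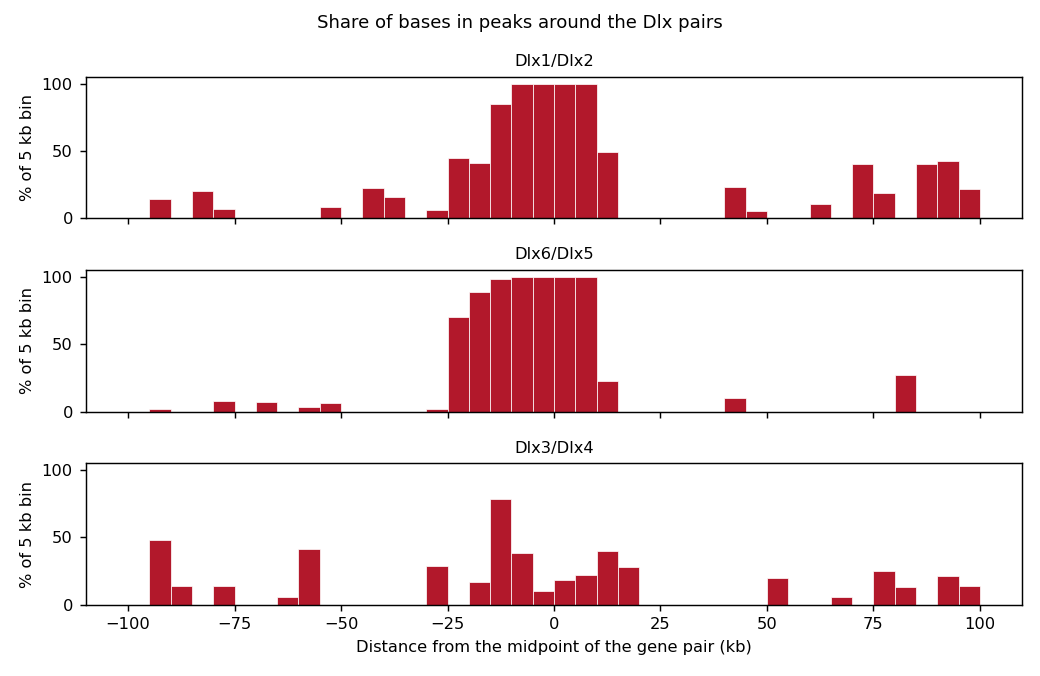
Share of bases in peaks, in percent of each 5 kb bin, out to 100 kb on either side of the midpoint of each Dlx pair. The 4 bins around the midpoint are at 100% in Dlx1/Dlx2 and Dlx6/Dlx5, and the highest bin of Dlx3/Dlx4, over the start of Dlx3, is at 78.7%.

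Counted per gene with 50 kb on each side, Dlx3 had 15 peaks, Dlx4 14, Dlx1 12, Dlx2 11, Dlx6 7 and Dlx5 5, against a median of 6 per protein-coding gene. Most of these peaks are shared within a pair. Fewer peaks than at Dlx3 were found at 88.3% of protein-coding genes, and fewer than at Dlx5 at 37.0%. By number of peaks, Dlx5 was thus an ordinary locus, although the peak over it is among the 5 widest of the list. As the choice of 50 kb decides the outermost members, the last peak inside was 44175 bp from Dlx1 (439 bp wide) and the next one outside was 52630 bp away (3 bp). On the Dlx2 side these were at 35415 bp (559 bp wide) and 52014 bp (542 bp), and on the Dlx6 side at 47860 bp (177 bp wide) and 56810 bp (348 bp). For Dlx5 they were at 32990 bp (521 bp wide) and 73336 bp (1371 bp), for Dlx3 at 48548 bp (285 bp wide) and 62559 bp (688 bp), and for Dlx4 at 39289 bp (978 bp wide) and 55702 bp (288 bp).

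The wider surroundings of Dlx6/Dlx5 were poor in peaks. Within 500 kb of the pair 29 peaks were found, against 82 at Dlx1/Dlx2, 82 at Dlx3/Dlx4 and a median of 58 over all neighbouring pairs, of which 17.0% had fewer than Dlx6/Dlx5. The next protein-coding gene on the Dlx6 side, the proteasome subunit gene Sem1, lies 284675 bp away, with 14 peaks in between, or 4.92 per 100 kb. On the Dlx5 side Sdhaf3, a succinate dehydrogenase assembly gene, lies 73902 bp away with 4 peaks in between, or 5.41 per 100 kb. Between Dlx2 and the integrin gene Itga6, 240131 bp away, there were 24 peaks, or 9.99 per 100 kb. Dlx3 and Itga3 lie 43272 bp apart with 6 peaks, or 13.9 per 100 kb, and Dlx4 and the tachykinin gene Tac4 115234 bp apart with 11 peaks, or 9.55 per 100 kb. Sem1, Sdhaf3, Itga6 and Tac4 were named for their position after the values were seen.

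Genes listed as upstream regulators of the Dlx genes were covered over 49.0% to 100% of their spans. Their median was 80.4%, against 3.77% over all protein-coding genes. Apart from Notch1 they are short, 1747 to 4974 bp, against a median gene of 17219 bp, so the shares are not alike in gene length. The order in which these genes and the Dlx genes act was not tested. All 7 listed upstream regulators had a peak at either end, against 67.3% of protein-coding genes. The 7 genes were chosen and are too few to set this count apart from that share, and it was not tested. A peak of the broadest 1% was present at 5 of 7, against 3.95%. The Notch effectors Hes1 and Hes5 and the progenitor factor Olig2 each lay wholly inside 1 peak. The eminence patterning factors Gsx2 and Gsx1, of which Gsx2 acts upstream of Dlx genes, had 80.4% and 70.0% of their spans covered. Nkx2-1, the factor of the medial eminence, had 78.3%, and the Notch1 receptor gene, much longer than the others at 45921 bp, had 49.0%.

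Genes reported to act after DLX factors were covered over 3.51% to 100% of their spans, with a median of 23.6%, against 3.77% over all protein-coding genes. All 21 had a peak at either end, against 67.3% of protein-coding genes, and 11 of 21 had a peak of the broadest 1%, against 3.95%. The genes were chosen, and they run from 3846 bp at Sp9 to 1019974 bp at Robo1, against a median gene of 17219 bp. A broad peak counted anywhere in a span or within 1000 bp of it, so longer genes had more room for one. Slc32a1, the vesicular GABA transporter gene, was covered throughout, and Six3, the eye and forebrain factor Vax1 and the zinc finger gene Sp9 had 95.3%, 95.2% and 83.8%. Meis2, named in the series' title as dependent on Dlx1 and Dlx2, had 18.9% of its 206274 bp covered. The axon guidance receptor gene Robo1, at 1019974 bp the longest, had 3.51%. As the label says striatum, 10 striatal genes were read the same way: all 10 had a peak at either end, against 67.3% of protein-coding genes, and 7 a peak of the broadest 1%, against 3.95%, with a median of 24.5% covered. Of these 8 are also on the downstream list, Slc32a1 and Six3 among them, and the next highest were Isl1 with 48.9% and Bcl11b with 43.8%, both factors of striatal projection neurons. The rest had less: Ppp1r1b 28.0%, Gad1 20.9%, Meis2 18.9%, Gad2 15.4%, Foxp1 7.45% and Ebf1 6.87%. The striatal genes were also chosen, and at 8488 to 597405 bp they are not alike in length with the median gene.

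Genes of tissues in which Dlx3 and Dlx4 are known to act were mixed. Of 16 epidermal, dental and craniofacial genes 9 had a peak at either end, near the 67.3% of all protein-coding genes, none had a peak of the broadest 1%, against 3.95%, and the median share covered was 5.60%, against 3.77%. These 16 genes were chosen and are too few to set the lack of a broad peak apart from 3.95%. No peak lay at either end of the keratin genes Krt5 and Krt14, the epidermal factor Trp63, the placental factor Gcm1, the bone factor Runx2, or the enamel genes Amelx and Enam. Of these, Runx2 still held 14 peaks along its 318811 bp and Trp63 held 3 along its 208326 bp, while the others held none. The branchial arch factors Hand2, Barx1 and Msx1 had 86.6%, 84.6% and 45.4% of their spans covered, and Tfap2a, a neural crest factor, had 34.2%. Dlx3 and Dlx4, with 60.6% and 35.9%, lay within the range of these genes. Of 6 cortical lineage genes, a cell type next to the striatum, all had a peak at either end, against the same 67.3%. None had a peak of the broadest 1%, against 3.95%. These 6 genes are also chosen and too few to set their counts apart from those shares. Their median share covered was 38.7%, against 24.5% for the striatal genes. These medians are not alike in gene length: the cortical genes are 2904 to 16533 bp long and the striatal genes 8488 to 597405 bp. The cortical genes had 84.4% at Neurod2, 79.1% at Neurog2, 52.6% at Tbr1, 24.9% at Emx1, 22.8% at Eomes and 7.49% at Neurod6. The part of other cell types in these peaks was not tested, since the list does not separate nuclei.

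**Figure D5:**
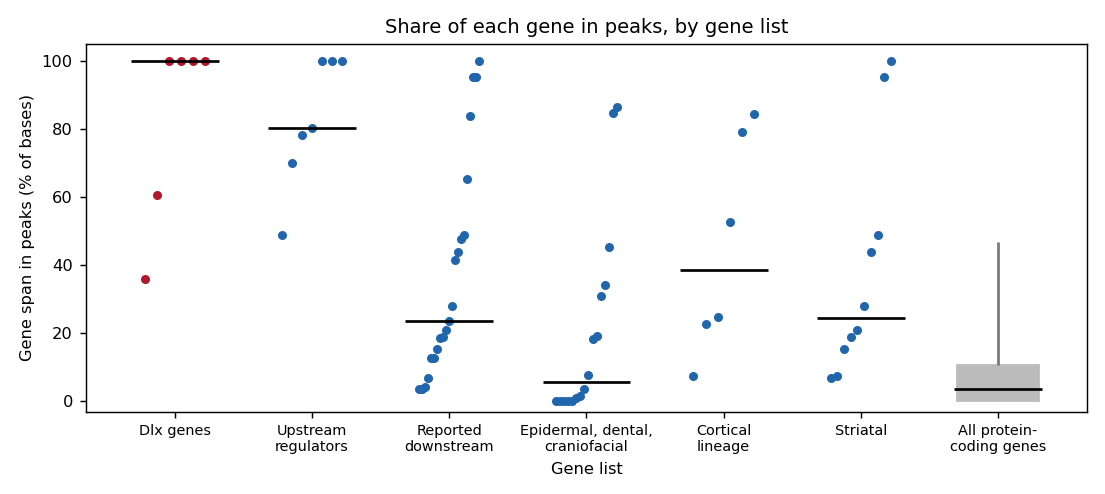
Share of each gene's span that lies in peaks, in percent, for the 6 Dlx genes (red), the genes of 5 lists (blue, 1 point per gene, black line at the median) and all protein-coding genes (grey box from lower to upper quartile, line up to the 95th percentile). Of the Dlx genes 4 are at 100%, Dlx3 is at 60.6% and Dlx4 at 35.9%, against a median of 3.77% over all genes.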

How the data were processed

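Single-nucleus ATAC-seq of 2 striatal libraries is given as 1 peak list for the series. The deposited lines hold chromosome, start and end alone. The submitters' processing notes name mm10, Cell Ranger ATAC 1.2.0 and Signac. The peak caller, its threshold, any pooling and the treatment of doublets are not given in the sources used here. Starts may count from 0 or from 1, so each position may be 1 base out. Width is end minus start.

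Of 49997 RefSeq gene entries (GRCm38.p6) 402 were left out, being on scaffolds, off the main chromosomes or under a symbol that occurs more than once. A pair locus adds 50 kb on each side of a pair. Neighbouring pairs are protein-coding genes with at least 1 base and at most 20 kb between them. Overlap means at least 1 bp. The gene table gives no strand, so gene starts came from the RefSeq windows or, for Dlx3 to Dlx6, from the known layout of Dlx pairs. Python 3.11.15 and pandas 2.3.3 were used, and the overlap functions were tested on simulated data. Genes named are the Dlx genes, the genes of their loci, the linked homeobox pairs, and from each list up to 4 with the highest cover and those without a peak at either end, with others for context. The members and lists were chosen with earlier results of these data known. Planned protein comparisons were not run, and some planned genes are not reported here. Alternatives changed flanks, windows, pair spacing and the joining, trimming or width of peaks.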

Additional observations from a re-analysis of the deposited data

How the results depend on the processing

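Of 51 alternative values 38 stayed within the tolerance. This was 1.5 times for a count and the exact 95% binomial interval over bases for a percentage. Bases of 1 peak are not independent, so that interval is too narrow and gives no replicate error. The 38 include values that no setting tried could change, such as the full cover of Dlx1/Dlx2 and Dlx6/Dlx5. Narrow peaks were left out, peaks joined, or 500 bp trimmed from each peak end. In each setting Dlx1/Dlx2 and Dlx6/Dlx5 lay in 1 peak and Dlx3/Dlx4 did not. These settings could not have changed that. The 2 wide peaks run at least 1047 bp beyond their genes, and an uncovered stretch of 7598 bp divides Dlx3/Dlx4. Counts of peaks followed the flank: with 10 kb there were 4 at Dlx1/Dlx2 and 3 at Dlx6/Dlx5, with 11 at Dlx3/Dlx4, and with 100 kb there were 25, 11 and 26. Among peaks wider than the median, 7 stayed at Dlx1/Dlx2 and 4 at Dlx6/Dlx5. The block of Dlx3/Dlx4, 33.7% covered in the deposited list, was 30.2% covered by peaks wider than the median, 36.5% with peaks closer than 1000 bp joined and 14.6% after trimming. Its segment, 23.6% covered, came to 20.2% with wider peaks and 6.96% after trimming. Trimming removes a larger share of narrow peaks by construction. Gene ends of Dlx3/Dlx4 with a peak numbered 3 of 4 within 1000 bp, 4 within 2500 bp and 2 at the end base itself. Neighbouring pairs in 1 peak numbered 20, and 14 to 26 when peaks were trimmed or joined. The 2 among longer blocks, and the Dlx1 start taken from RefSeq windows, were examined after seeing the data. The list holds no score, so no stricter peak threshold could be set, and no value per library, so no library could be left out. No paired analysis was possible because there is 1 group and the list carries no sample. Depth is unknown, so uncovered stretches need not be closed chromatin.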
